A study of Sus scrofa with 8 samples.

Results

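Interstitial collagens and other genes of the matrix programme of mesenchymal cells were followed in porcine induced pluripotent stem cells with and without overexpressed IRF-1, an interferon-regulated transcription factor. The 10 genes encode fibril-forming collagen chains (COL1A1, COL1A2, COL3A1, COL5A1 and COL5A2), a chain of the beaded-filament collagen VI (COL6A1), a fibril-associated collagen (COL16A1), the proteoglycan decorin (DCN), the collagen-binding glycoprotein SPARC and the mesenchymal transcription factor PRRX1. They were picked by symbol in a table of pig Ensembl gene names, and each had 1 row among the 24358 genes of the count table. The members did not move together. COL1A2, COL5A2 and PRRX1 were higher in the overexpressing cells, by 2.11-fold, 2.12-fold and 3.07-fold, respectively. COL1A1, SPARC and COL16A1 were lower, by between 3.92-fold for COL1A1 and 7.44-fold for COL16A1. COL6A1 and DCN were lower too, on few counts, and entered the test only through the controls. The chains that build type I collagen together were thus called in opposite directions, but the calls of COL1A2 and COL5A2 were lost without overexpressing replicate 1 (log2 fold changes 0.65 and 1.10), without control replicate 8 (0.79 and 0.80) and with glmTreat.

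Fibrillar collagens are made as procollagen chains that fold into triple helices in the endoplasmic reticulum. Most type I collagen is a heterotrimer of a pair of COL1A1 chains and a single COL1A2 chain. The trimers are secreted, trimmed at both ends, assembled into fibrils with types III and V, and crosslinked by lysyl oxidases. Fibroblasts, osteoblasts and other mesenchymal cells are the main source of this matrix. The cells studied here descend from porcine embryonic fibroblasts, which produce it, and reprogramming generally silences much of the fibroblast programme.

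The RNA-seq data comprise 2 libraries of IRF-1 overexpressing cells (replicates 1 and 3) and 2 libraries of control cells (replicates 6 and 8). By the study's methods, both groups were DOX-hLIF-2i piPSCs, which were derived with doxycycline-inducible reprogramming factors (OSKM) and kept on doxycycline, human and porcine LIF and the inhibitors CHIR99021 and PD0325901. The overexpressing cells received PB-CAG-IRF1-Flag with a transposase plasmid, the control cells PB-CAG-Flag, and both were selected with puromycin, and the CAG promoter drives the transgene. The labels give domestic pig as the breed, the genotype "overexpression of IRF-1" for all 4 libraries, and an LCDMV culture of PC-iPS cells. The control assignment of replicates 6 and 8 therefore rests on the study's own naming of the libraries, and the culture is described in different ways. The labels also say that feeder cells were removed by letting them attach and collecting the cells still in suspension. No source used here says that the replicates were separate cultures, and the p-values then measure only the spread between these samples, which may be technical.

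Reads counted on genes numbered 24923319 and 20858333 in overexpressing replicates 1 and 3, and 15925429 and 17097669 in control replicates 6 and 8. A single count was worth between 0.0402 and 0.0640 CPM (counts scaled by library size and TMM factor). The replicates of each group differed beyond sampling noise, with a chi-square per degree of freedom of 17.9 between the overexpressing libraries and 31.3 between the controls. IRF1 was read first to check the group names. It had 8206 and 5485 counts with IRF-1 overexpression against 55 and 56 in the controls (log2 fold change 6.46, standard error 0.210, adjusted p = 3.65e-05 in edgeR), and transgene and endogenous transcripts were not separated. The libraries therefore carried IRF1 as the study names them.

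The comparison was fitted with edgeR's quasi-likelihood test over 13250 genes. A gene was called when its p, adjusted by Benjamini-Hochberg, was under 0.05 and its fold change was 2 or more either way. Of the 10 members, 8 passed the filter on low counts, 3 were called higher and 5 lower. Of the lower ones, COL6A1 and DCN passed the filter through the control libraries alone. Over all genes tested, 1141 (8.61%) were called higher and 1410 (10.6%) lower. COL3A1 and COL5A1 had too few counts to be tested. The median log2 fold change of all genes tested was 0.00. In these bulk libraries, fewer cells of a type and less RNA per cell cannot be told apart.

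**Figure D1:**
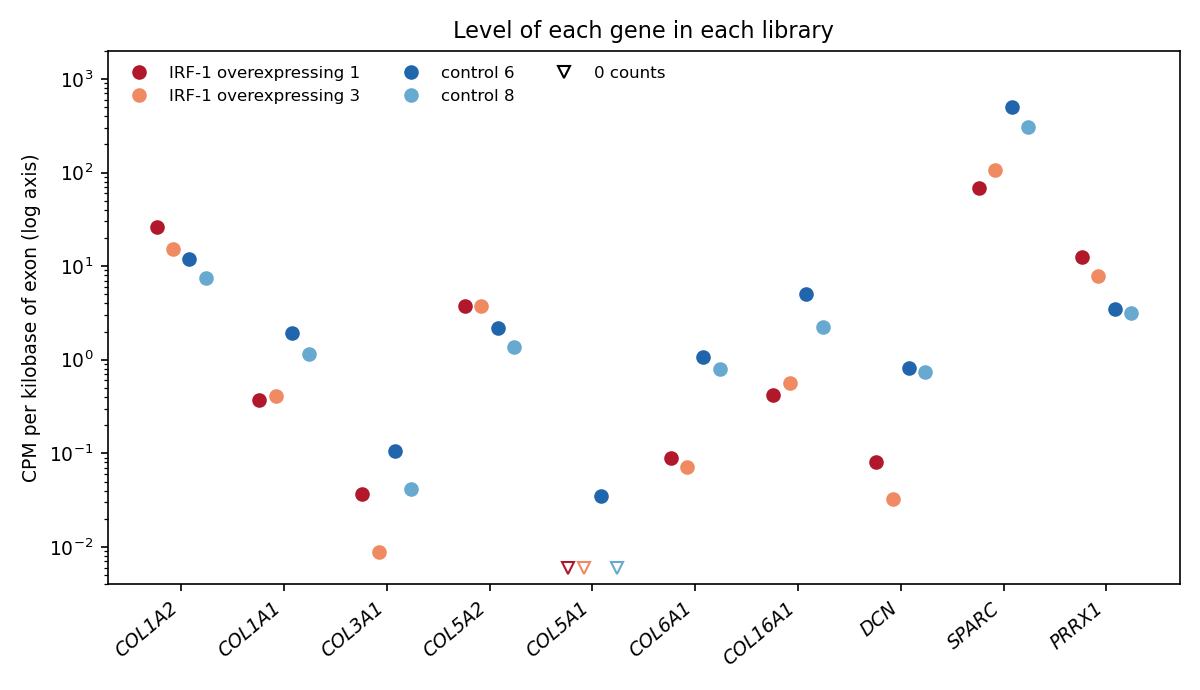
Level of each of the 10 genes in each of the 4 RNA-seq libraries, as CPM per kilobase of exon on a log axis; filled circles are single libraries and open triangles at the bottom mark libraries with 0 counts. COL1A2, COL5A2 and PRRX1 lie higher in both overexpressing libraries than in both controls, while COL1A1, COL6A1, COL16A1, DCN and SPARC lie lower, and SPARC has the highest level of the 10 in every library.

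COL1A2 encodes the chain that occurs singly in the type I trimer. Its level was 139 and 81.2 CPM in overexpressing replicates 1 and 3, and 64.3 and 39.9 CPM in control replicates 6 and 8. The groups did not overlap, but overexpressing replicate 3 lay nearer to control replicate 6 than to its own partner. The group levels were 110.2 ± 40.9 and 52.1 ± 17.3 CPM (SD, n = 2 per group; log2 fold change 1.08, standard error 0.298, adjusted p = 0.0301 in edgeR). This call rested on the libraries included. The log2 fold change was 0.65 (adjusted p = 0.184 in edgeR) without overexpressing replicate 1 and 0.79 (adjusted p = 0.0438) without control replicate 8, and the call was also lost when the fold change was tested against the log2 limit of 1 with glmTreat (adjusted p = 0.863).

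COL1A1 encodes the chain that is needed in every type I trimer, including the rarer homotrimer. It had 59 and 54 counts with IRF-1 overexpression against 190 and 129 in the controls, or 2.37 and 2.59 CPM against 12.2 and 7.37 CPM. Both overexpressing libraries were alike and below both controls. The fitted log2 fold change came to -1.97 ± 0.352 (standard error; adjusted p = 0.00547 in edgeR), and it stayed between -2.28 and -1.57 in all 15 fits. An unnamed gene of the other strand overlaps its exons by 40 bases and had 0 counts in each library.

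Per kilobase of exon, which allows the genes to be compared, COL1A2 exceeded COL1A1 in every library. The ratio of COL1A2 to COL1A1 was 69.3 and 37.0 in the overexpressing libraries but 6.26 and 6.41 in the controls. The controls were close to each other, and both overexpressing libraries stood well above them, at 53.2 ± 22.8 against 6.34 ± 0.104 (SD, n = 2 per group). The ratio does not depend on how the libraries are scaled. With 2 libraries in each group, the smallest two-sided p that an exact permutation test of such a ratio can reach is 0.333, and none was computed.

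**Figure D2:**
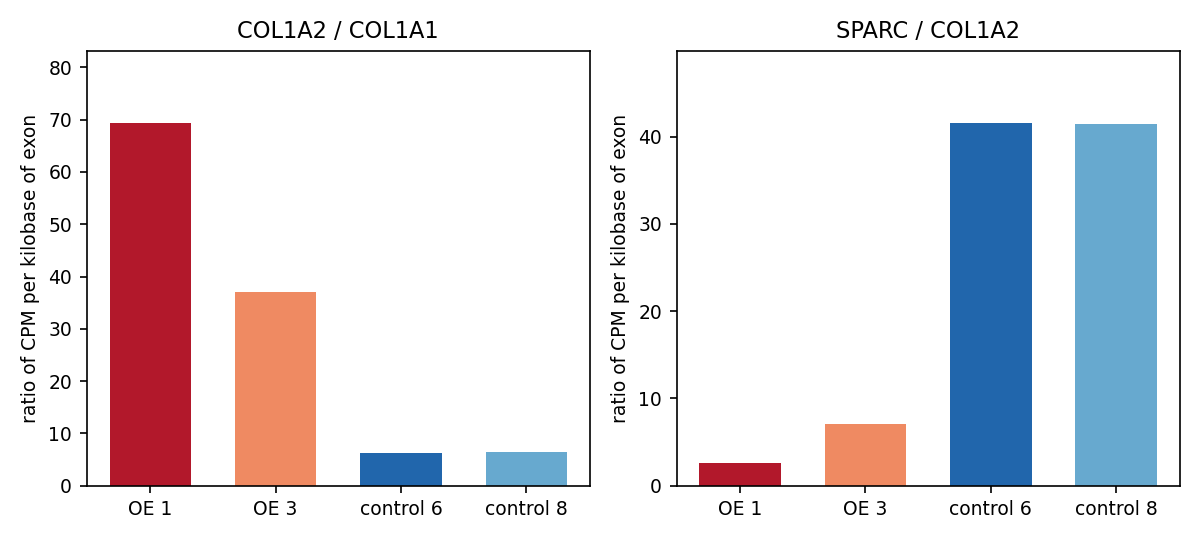
Ratios of CPM per kilobase of exon in each library, for COL1A2 over COL1A1 (left) and SPARC over COL1A2 (right); each bar is 1 library and OE stands for IRF-1 overexpressing. The first ratio is 69.3 and 37.0 in the overexpressing libraries against 6.26 and 6.41 in the controls, and the second is 2.63 and 7.09 against 41.5 and 41.4.

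COL3A1 encodes the homotrimeric collagen of reticular fibres, which fibroblasts usually make beside type I. It was close to absent here, with 5 and 1 counts with IRF-1 overexpression against 9 and 4 in the controls. The ratio of control to overexpressing cells over the summed counts was 2.99, with a 95% counting interval of 1.06 to 9.58 that leaves out the spread between libraries. COL1A2 exceeded COL3A1 per kilobase by 113.8-fold and 178-fold in the controls, and by more in the overexpressing libraries, where COL3A1 rests on very few counts. The locus is shared with COL5A2: on chromosome 15, COL3A1 spans 93556914 to 93596360 on the plus strand and COL5A2 spans 93611549 to 93843645 on the minus strand, with their 3' ends facing each other. The first of these genes was near the detection limit in all 4 libraries, whereas its neighbour was counted at 172 or more in each. An unnamed gene that lies within COL3A1 on the same strand shares 136 exon bases with it and had 0 counts.

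COL5A2 encodes a chain of collagen V, which nucleates type I fibrils and limits their diameter. Its level was 26.8 and 27.0 CPM in the overexpressing libraries against 15.5 and 9.83 CPM in the controls. The overexpressing libraries agreed closely and both lay above the controls. The fitted log2 fold change came to 1.08 ± 0.248 (standard error; adjusted p = 0.0147 in edgeR). As for COL1A2, the call was lost without overexpressing replicate 1 (log2 fold change 1.10, adjusted p = 0.0546 in edgeR), without control replicate 8 (0.80, adjusted p = 0.0205) and with glmTreat (adjusted p = 0.802).

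COL5A1 encodes the usual partner of COL5A2 in the collagen V trimer. It had 3 counts in control replicate 6 and 0 in the other 3 libraries, which is at or under the floor of 3 counts in both groups, so no fold change is given and COL5A1 was not detectable at this depth. A further partner, COL5A3, had between 4 and 11 counts in each library. In cartilage and the vitreous body, COL5A2 chains are also found with COL11A1 chains, and COL11A1 was counted at 598 and 462 in the overexpressing libraries against 1158 and 691 in the controls. Thus the collagen V chain that was higher had almost no transcripts of its own family's major chain beside it in these libraries. COL5A3 was named after its values were seen.

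Collagen VI forms beaded filaments from COL6A1, COL6A2 and a larger chain such as COL6A3. COL6A1 had 9 and 6 counts with IRF-1 overexpression against 67 and 56 in the controls, and only the controls brought it past the filter on low counts. The groups did not overlap, at 0.325 ± 0.0522 and 3.74 ± 0.767 CPM (SD, n = 2 per group; log2 fold change -3.49, standard error 0.473, adjusted p = 0.00179 in edgeR). COL6A3 had 1 count in overexpressing replicate 3 and 0 in each of the other libraries, and COL6A2 has no row with that name in the tables used here. COL6A3 was therefore under the floor of 3 counts in both groups.

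COL16A1 encodes a collagen with an interrupted helix that sits on the surface of fibrils and microfibrils. Its counts were 62 and 70 in the overexpressing libraries against 469 and 237 in the controls. The overexpressing libraries resembled each other, while control replicate 6, at 30.0 CPM, had a higher level than control replicate 8, at 13.5 CPM. The fitted log2 fold change came to -2.89 ± 0.413 (standard error; adjusted p = 0.00223 in edgeR) and -2.21 without control replicate 6. Of the 8 tested members, COL16A1, COL6A1 and DCN had the most negative fitted values, those of COL6A1 and DCN on few counts with IRF-1 overexpression.

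DCN encodes decorin, a small leucine-rich proteoglycan that binds collagen fibrils, spaces them and sequesters TGF-beta. It had 3 and 1 counts with IRF-1 overexpression against 19 in each control. The ratio of control to overexpressing cells was 13.1, with a 95% counting interval of 4.71 to 50.5. DCN entered the test through the controls, where it was high. The fitted log2 fold change, which depends on the prior count at such levels, came to -3.63 ± 0.674 (standard error; adjusted p = 0.00651 in edgeR). With so few counts it ranged from -4.38 without overexpressing replicate 1 to -3.18 without overexpressing replicate 3, where the call was lost (adjusted p = 0.0557). LUM, which encodes the related proteoglycan lumican and lies next to DCN on chromosome 5, had at most 3 counts in any library.

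SPARC, also called osteonectin, binds collagen outside the cell and helps to assemble fibrils. It is made by fibroblasts and bone cells, and also by parietal endoderm and other epithelia that lay down basement membrane. SPARC was at 126 and 198 CPM in the overexpressing libraries and at 921 and 569.9 CPM in the controls. The highest overexpressing library reached less than the lowest control by a wide margin, and the fitted log2 fold change came to -2.20 ± 0.283 (standard error; adjusted p = 0.00149 in edgeR). Ranked by CPM per kilobase among all genes with a count, it stood at 99 and 130 in the controls and at 742 and 460 in the overexpressing libraries. No other member ranked above 2219 in any library.

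The weight of SPARC within the programme fell with it. It made up 94.9% and 94.8% of the summed CPM per kilobase of the 10 members in the controls, and 61.3% and 79.4% in the overexpressing libraries. The shares of the other members therefore depend on SPARC as well as on their own levels. The ratio of SPARC to COL1A2 per kilobase was 41.5 and 41.4 in the controls, and 2.63 and 7.09 in the overexpressing libraries.

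PRRX1 encodes a paired-type homeodomain factor of limb bud, craniofacial and other embryonic mesenchyme. It had 1399 and 741 counts with IRF-1 overexpression against 245 and 250 in the controls, or 56.3 and 35.6 CPM against 15.7 and 14.3 CPM. The controls were nearly equal and both overexpressing libraries lay above them. The fitted log2 fold change came to 1.62 ± 0.243 (standard error; adjusted p = 0.00269 in edgeR). PRRX1 was the only member called higher in all 15 fits, including glmTreat, with values between 1.26 and 1.92 and an adjusted p of at most 0.0481.

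**Figure D3:**
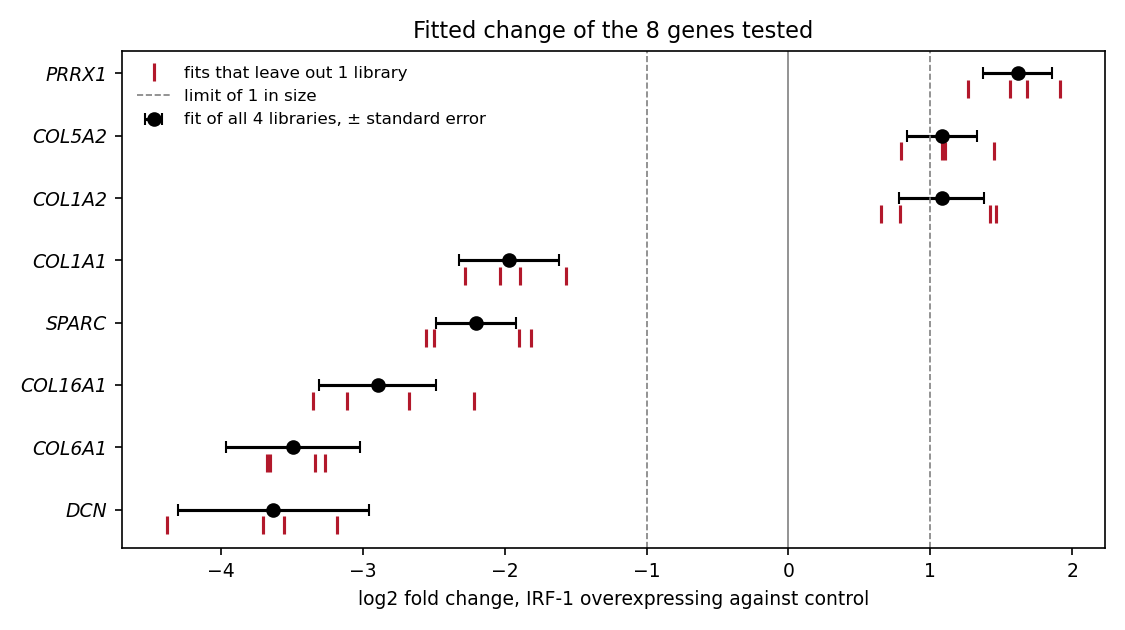
Fitted log2 fold change of the 8 tested genes, IRF-1 overexpressing against control; black points with bars are the fit of all 4 libraries with its standard error, red ticks are the 4 fits that leave out 1 library, and dashed lines mark the limit of 1 in size. The ticks of COL1A2 reach down to 0.65 and those of COL5A2 to 0.80, while all ticks of PRRX1 stay above 1 and all ticks of the 5 lower genes stay below -1.

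The order of the members by CPM per kilobase differed between the groups. In the controls, SPARC was followed by COL1A2, and then by COL16A1 (4.99 and 2.25 in replicates 6 and 8) and PRRX1 (3.49 and 3.18), whose ranges overlapped. COL5A2 (2.17 and 1.37) and COL1A1 (1.92 and 1.16) also overlapped, as did COL6A1 (1.06 and 0.789) and DCN (0.821 and 0.734) below them. In the overexpressing libraries, SPARC (68.4 and 108) and COL1A2 (26.0 and 15.2) were followed by PRRX1 (12.5 and 7.93) and COL5A2 (3.73 and 3.76), without overlap between neighbours. COL16A1 (0.415 and 0.560) and COL1A1 (0.375 and 0.410) came after a gap, with COL6A1 and DCN below 0.1 in both libraries.

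Other collagens, of fibrils, fibril surfaces and further classes, also moved in both directions. Of 11 tested, 3 were higher and 3 lower (median log2 fold change -0.46). COL9A1, a chain of the cartilage collagen that decorates type II fibrils, had 1426 and 1127 counts with IRF-1 overexpression against 167 and 238 (log2 fold change 2.20, standard error 0.186, adjusted p = 0.000399 in edgeR). The fibril-associated COL14A1 had 374 and 152 counts against 51 and 36 (2.08 on the log2 scale) and the fibrillar COL11A2 had 236 and 129 against 61 and 55 (1.16). The network-forming COL8A1, with 11 and 7 counts against 27 and 35, was lower (-2.23) and passed the filter through the controls alone. COL12A1, which links fibrils to other matrix and had 501 and 197 counts against 674 and 593, was lower too (-1.37), as was COL11A1 (-1.29).

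Of these 6 calls, COL9A1 alone was kept in every fit that left out a library. COL14A1 was not called without overexpressing replicate 1 (1.47, adjusted p = 0.0751 in edgeR), nor was COL11A2 (0.83, adjusted p = 0.286), which was also lost without control replicate 8 (1.02, adjusted p = 0.0766). COL8A1 was lost on its adjusted p without overexpressing replicate 1 (-2.434) or 3 (-2.055), with a fold change about as large. COL12A1 was lost without overexpressing replicate 3 (-0.93) and had a value of -2.01 without replicate 1, and COL11A1 was lost without control replicate 6 (-0.77). Exons of COL14A1 share 412 bases with TAF2 on the opposite strand. The gene of this list with the highest mean level per kilobase was COL2A1, the type II collagen of cartilage and early embryonic epithelia, which was named after its values were seen. COL2A1 stood at 103 and 78.0 CPM per kilobase in the overexpressing libraries against 86.4 and 60.4 in the controls, above COL1A2 in each, and its groups overlapped (log2 fold change 0.30, adjusted p = 0.316 in edgeR).

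The enzymes and chaperones that modify, fold, trim and crosslink collagen were mostly lower or not called. Of 28 tested, 2 were higher and 12 lower (median log2 fold change -0.71), and 7 were lower without overexpressing replicate 1. LOXL1, LOXL2 and LOXL3 belong to the lysyl oxidase family, which forms crosslinks. LOXL1 had 31 and 32 counts with IRF-1 overexpression against 912 and 540 in the controls (log2 fold change -5.00, standard error 0.375, adjusted p = 0.00025 in edgeR). LOXL2, with 137 and 231 counts against 1915 and 1214, fell by 3.54 on the log2 scale. LOXL3, with 62 and 51 counts against 328 and 184, fell by 2.67. Exons of LOXL2 share 1768 bases with an unnamed gene and those of LOXL3 share 2055 bases with HTRA2, on the opposite strand in both cases. The founding member LOX, named after its values were seen, had 373 and 382 CPM against 395 and 436 CPM and was not called (log2 fold change -0.14, adjusted p = 0.461 in edgeR).

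The 2 higher genes of this list were TGM2 and ADAMTS14. TGM2, a transglutaminase that crosslinks matrix proteins, had 72 and 107 counts with IRF-1 overexpression against 8 and 4 (log2 fold change 3.43, standard error 0.572, adjusted p = 0.00415 in edgeR). TGM2 passed the filter through the overexpressing libraries alone, and without control replicate 6 the value was 4.10. ADAMTS14, which removes the N-terminal propeptide of fibrillar procollagens, had 655 and 339 counts against 52 and 75 (log2 fold change 2.48, standard error 0.314, adjusted p = 0.0014 in edgeR).

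Among small leucine-rich proteoglycans, the class of decorin, 3 of 5 tested genes were lower (median log2 fold change -1.68). BGN, which encodes the decorin paralogue biglycan, had 984 and 631 counts against 2782 and 1982 (log2 fold change -2.06, standard error 0.243, adjusted p = 0.00109 in edgeR). The other lower genes were CHADL and PODNL1, named after their values were seen, and each was at 34 counts or fewer in every library. CHADL passed the filter through the controls alone. The number of lower genes was 1 without either overexpressing replicate or without control replicate 8. Of the 15 genes of the class, EPYC, KERA and LUM were at no more than 3 counts in each library.

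SPARC has 4 tested relatives with a similar calcium-binding or follistatin-like domain (median log2 fold change -0.14). SMOC1, a basement membrane protein that antagonises BMP signals, was higher, at 45.3 and 46.2 CPM against 19.8 and 22.3 CPM (log2 fold change 1.12, standard error 0.163, adjusted p = 0.00242 in edgeR). FSTL1, a secreted follistatin-like glycoprotein, was lower, at 480 and 535 CPM against 1019 and 1146 CPM (log2 fold change -1.09, standard error 0.134, adjusted p = 0.00124 in edgeR). Without control replicate 8, FSTL1 lay at the limit and was not called, and without overexpressing replicate 3 the lower genes numbered 2. SPARC itself thus changed by more than any tested relative.

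**Figure D4:**
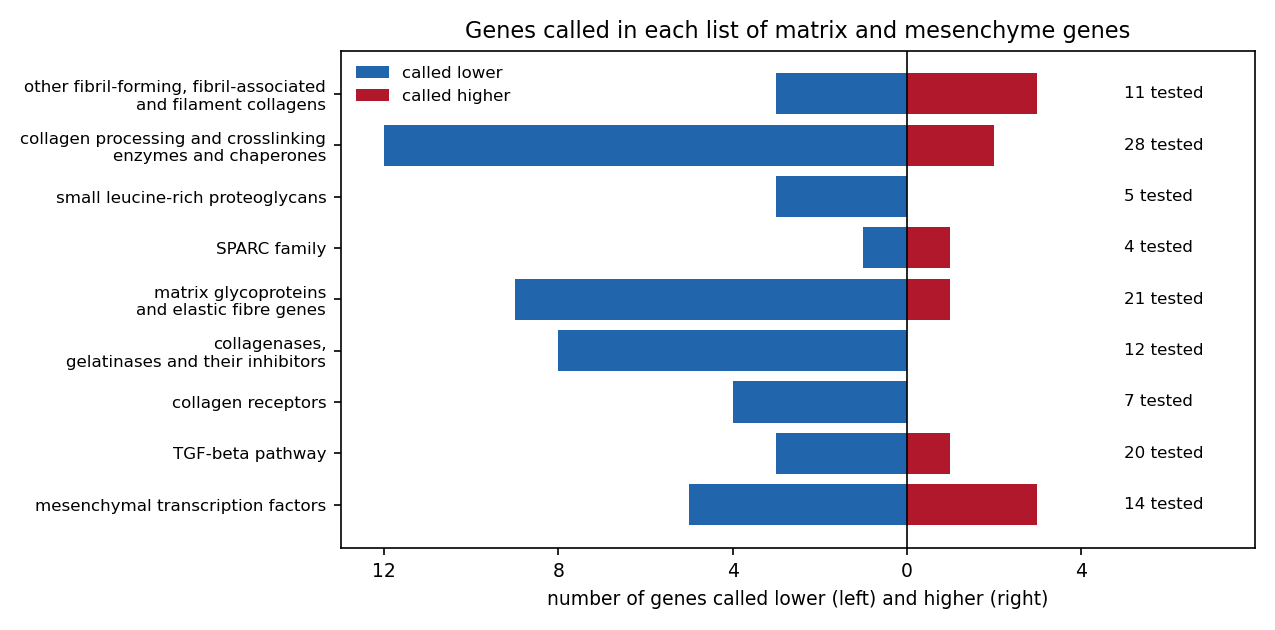
Number of genes called lower (blue, left) and higher (red, right) in 9 lists of matrix and mesenchyme genes, with the number tested at the right of each bar. The largest counts are 12 of 28 lower for collagen processing, 9 of 21 for matrix glycoproteins and elastic fibres and 8 of 12 for collagenases, gelatinases and their inhibitors.

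Of 21 tested matrix glycoprotein and elastic fibre genes, 9 were lower, 1 was higher and 11 were not called (median log2 fold change -1.09). MFAP5, a component of elastin-associated microfibrils, had 3 counts in each overexpressing library against 77 and 57, a ratio of control to overexpressing cells of 30.8 with a 95% counting interval of 13.8 to 85.4, and passed the filter through the controls alone. MATN2, a matrilin that bridges matrix filaments, had 487 and 806 counts against 3756 and 3557 (log2 fold change -2.93, standard error 0.306, adjusted p = 0.000746 in edgeR). THBS1, a matricellular protein that can activate latent TGF-beta, had 99 and 136 counts against 1539 and 315, and its log2 fold change of -3.47 came to -1.78 if control replicate 6 was left out, or -4.23 without replicate 8. TGFBI, a collagen-binding adhesion protein induced by TGF-beta, was the higher gene, with 937 and 918 counts against 216 and 288 (log2 fold change 1.43, standard error 0.188, adjusted p = 0.00159 in edgeR).

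Of 12 tested genes that degrade collagen, or restrain its degradation, 8 were lower (median log2 fold change -1.20), and 5 were lower without overexpressing replicate 1. The stromal protease MMP11 had 371 and 561 counts against 1791 and 1546 (log2 fold change -2.28, standard error 0.281, adjusted p = 0.00128 in edgeR). The membrane-bound MMP23B, with 22 and 28 counts against 113 and 61 (log2 fold change -2.26), was not called without overexpressing replicate 1 (adjusted p = 0.0698 in edgeR) and had a value of -1.65 without control replicate 6. Without overexpressing replicate 3, 1 gene of this list was higher. TIMP3, an inhibitor of these proteases that is anchored in the matrix, had 176 and 177 counts against 979 and 401, a log2 fold change of -2.46, and of -1.56 without control replicate 6. The classical interstitial collagenases MMP1, MMP8 and MMP13 were at no more than 2 counts in each library, a check made after their values were seen.

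Of 7 tested collagen receptors, 4 were lower (median log2 fold change -1.08). MRC2, which takes up collagen for degradation inside the cell, had 993 and 1162 counts against 3492 and 2832 (log2 fold change -2.01, standard error 0.224, adjusted p = 0.000916 in edgeR). The discoidin-domain receptor kinase DDR1 had 2651 and 4049 counts against 9264 and 8572 (-1.85), and the integrin chain ITGA11 had 33 and 25 against 151 and 65 (-2.39). The ITGA11 value was -1.55 without control replicate 6, and its exons share 76 bases with FEM1B on the opposite strand. ITGB1, the common partner chain of the collagen-binding integrins, was the remaining lower gene and was named after its values were seen (-1.08). Without overexpressing replicate 3, 1 receptor was higher.

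The TGF-beta pathway is a main inducer of interstitial collagen genes in fibroblasts. All 20 of its listed genes were tested, of which 3 (15%) were lower and 1 (5%) higher (median log2 fold change -0.35). These shares lay near those over all genes tested, at 10.6% lower and 8.61% higher. LTBP4, which holds latent TGF-beta in the matrix, had 924 and 1391 counts against 7600 and 6479 (log2 fold change -3.04, standard error 0.289, adjusted p = 0.000547 in edgeR). CCN2, the matricellular connective tissue growth factor, had 179 and 407 counts against 1877 and 637. Its log2 fold change of -2.55 was -1.45 without control replicate 6, -3.43 without overexpressing replicate 3 and -3.17 without control replicate 8. The co-receptor TGFBR3 had 242 and 226 counts against 509 and 599 (-1.70). SKIL, a repressor of SMAD proteins that TGF-beta itself induces, had 1647 and 820 counts against 327 and 459 (1.16) and was not called without overexpressing replicate 1 (0.75, adjusted p = 0.0895 in edgeR). With control replicate 8 left out, 5 genes of the pathway were lower, and with control replicate 6 left out 2 were higher.

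Of 14 tested transcription factors of mesenchyme, 3 were higher, 5 lower and 6 not called (median log2 fold change 0.20). TBX18, a T-box factor of somite, limb and epicardial mesenchyme, had 1730 and 1186 counts with IRF-1 overexpression against 19 and 35 in the controls (log2 fold change 5.28, standard error 0.272, adjusted p = 9.79e-05 in edgeR). RUNX1, best known from blood and also active in skeletal mesenchyme, had 196 and 147 counts against 9 and 13 (log2 fold change 3.49, standard error 0.381, adjusted p = 0.000882 in edgeR). The nuclear receptor NR2F1 had 292 and 502 counts against 113 in each control (1.39), and it was not called without overexpressing replicate 3 (0.79, adjusted p = 0.177 in edgeR) or with limma-voom (adjusted p = 0.0508). Exons of TBX18 share 303 bases with an unnamed gene of the opposite strand.

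MSX1, a homeodomain factor of limb, tooth and craniofacial mesenchyme, led the lower factors, with 173 and 357 counts against 1836 and 2038 (log2 fold change -3.29, standard error 0.368, adjusted p = 0.000927 in edgeR), and its value was -4.06 without overexpressing replicate 3. PRRX2, the paralogue of PRRX1, had 13 and 23 counts against 88 and 40 (log2 fold change -2.29, standard error 0.592, adjusted p = 0.0237 in edgeR). It was not called without overexpressing replicate 1 (-1.81, adjusted p = 0.131 in edgeR) or control replicate 6 (2.83-fold lower, adjusted p = 0.112), and its value was -2.89 without overexpressing replicate 3. FOXC2, a forkhead factor of somites and vessels, had 102 and 259 counts against 516 and 608, a log2 fold change of -2.04, of -1.43 without overexpressing replicate 1 and of -3.04 without overexpressing replicate 3. The remaining lower factors, NR2F2 (-1.26) and MSX2 (-1.72), were named after their values were seen. Without overexpressing replicate 1, or without control replicate 6, the lower factors numbered 3. When glmTreat tested against the log2 limit itself, the calls of COL14A1, COL11A2, COL8A1, COL12A1, COL11A1, SMOC1, FSTL1, TGFBI, MMP23B, ITGA11, SKIL, CCN2, NR2F1, PRRX2 and FOXC2 were lost.

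Marker lists of cell types were read beside these results, and the genes named in them as higher or lower were picked after their values were seen. Of these, MFAP5, DES, TIE1 and CLDN4 passed the filter through the controls alone. Of 10 tested fibroblast markers, 4 were lower (PDGFRB, MFAP5, S100A4 and FBLN1), and the median log2 fold change was -1.03. The list summed to 1478 and 1309.6 CPM in the overexpressing libraries against 1789 and 1701 CPM in the controls. Most of this was VIM, an intermediate filament gene of many cultured cells, at 1035 and 855 against 1104 and 1072 CPM, which was not called (log2 fold change -0.20, adjusted p = 0.31 in edgeR). The fibroblast genes DPT, LUM, PI16 and TCF21 were at no more than 3 counts in each library. THY1 and TWIST1 have no named row and were not analysed here.

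Contractile markers of smooth muscle and myofibroblasts were lower for 5 of 7 tested genes (ACTA2, TPM2, DES, SMTN and CALD1), and the median log2 fold change was -1.81. Their summed level was 81.7 and 89.4 CPM in the overexpressing libraries against 348 and 273 CPM in the controls, and CALD1 had the highest level per kilobase. Without control replicate 8, the filter kept more of the 10 listed genes, and 8 were lower. Of 5 tested endothelial markers, 2 were lower (TEK and TIE1), with a summed level of 4.02 and 7.59 against 59.9 and 65.9 CPM that was mostly TEK, while CDH5, EMCN and ERG were at no more than 1 count. Without overexpressing replicate 3 or control replicate 6, 1 of these markers was lower. Of 6 tested blood cell markers, AIF1 was lower and led a summed level of 46.0 and 37.9 against 184 and 129.6 CPM, and CD14, CD3E, HBB and PTPRC were at no more than 3 counts.

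Epithelial and endoderm markers, which include cell types that make SPARC, summed to more in the controls. Of 8 tested simple epithelial markers, 5 were lower in the overexpressing cells (KRT8, KRT18, CDH1, CLDN4 and CLDN6) and ESRP1 was higher (median log2 fold change -2.54). This list summed to 325 and 1235 CPM in the overexpressing libraries against 16047 and 9952 CPM in the controls, and KRT8 was its most abundant gene per kilobase. ESRP1 was not called without overexpressing replicate 1, and GRHL2 and KRT7 were at 3 counts or fewer everywhere. Of 6 tested parietal and primitive endoderm markers, 2 were lower (FST and LAMB1). GATA6 (log2 fold change 0.12), LAMA1 (-0.46), COL4A2 (-0.79) and PDGFRA (-1.60), named after their values were seen, were not called. The 6 tested markers had a median of -1.20, and the summed level of the list was 763 and 792 against 1664 and 1452 CPM. Without control replicate 8, 4 of them were lower. FST was the most abundant per kilobase, and AFP, FOXA2 and TTR had 0 counts in each library. Whether these differences in marker levels have a part in the SPARC, COL1A1, COL6A1, COL16A1 and DCN results was not tested.

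Of 11 tested pluripotent cell markers, 4 were lower (LIN28A, ESRRB, OTX2 and KLF5) and TERT was higher (median log2 fold change -0.40). KLF5 rested on few counts, 8 and 12 with IRF-1 overexpression against 20 and 37 in the controls. By qRT-PCR, the study reported KLF5 as upregulated in the overexpressing cells. The list summed to 1683 and 1699 CPM in the overexpressing libraries against 1918 and 2090.4 CPM in the controls, and LIN28A was the most abundant per kilobase. DNMT3B, named after its values were seen, had the highest CPM of the list in each library, at 1034 and 1005 against 694 and 996. It was not called (log2 fold change 0.27, adjusted p = 0.297 in edgeR). TERT was not called without overexpressing replicate 1. NANOG had between 5 and 11 counts in each library, and DPPA5, GDF3 and PRDM14 were at no more than 2 counts. Overexpressing replicate 3 lay closer to the controls than replicate 1 for the epithelial list and also for COL1A2, PRRX1 and SPARC. COL5A2 and COL1A1 were alike in both, and COL16A1 was slightly closer in replicate 3. For COL6A1 and DCN, on few counts, replicate 1 lay closer. The share of mitochondrial counts was 8.62% and 7.57% in the overexpressing libraries against 6.29% and 6.68% in the controls, and leaving these genes out with the 10 highest ones changed no member's call.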

How the data were processed

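RNA-seq libraries of IRF-1 overexpressing and control piPSCs, made with oligo(dT) from total RNA, were compared. Reads were mapped to Sus scrofa 11.1 with HISAT2 (2.0.4 in the submitters' processing notes), and the authors deposited whole-number counts per gene from featureCounts 1.6.4, with exon lengths and without normalization. Besides featureCounts, htseq-count is named. The annotation release, strand setting and treatment of multi-mapped reads are not given in the sources used here, so overlapping exons were counted. No column of counts was unused (0). ChIP-Seq libraries were not analysed here.

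Symbols came from a table of Ensembl gene names (14692 of 24358 matched). In R 4.3.3, counts were scaled by TMM and filtered by filterByExpr of edgeR 4.0.16; 13250 genes entered its quasi-likelihood test, adjusted by Benjamini-Hochberg (common dispersion 0.0313). The standard error is the log2 fold change divided by the square root of F. Intervals (exact, 95%) and the floor of 3 counts cover counting error only. Levels per kilobase use the exon length of the count table. The statistics were also run on simulated counts with the same dispersion for all genes and independent libraries. That simulation does not cover replicates that may be technical.

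The members and 16 gene lists were chosen with earlier results of these data known. Named genes are IRF1, the members, collagen VI partner chains, and up to 3 called genes with the highest and the lowest log2 fold change per list at a mean of at least 1 CPM; in marker lists, they are the gene with the highest level per kilobase and genes at 3 counts or fewer in each library. The 14 alternatives were other scalings, filters, tests (DESeq2 1.42.0, limma-voom 3.58.1, glmTreat, no fold limit), each library left out, and counts without the 37 mitochondrial and 10 highest genes.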

Additional observations from a re-analysis of the deposited data

How the results depend on the processing

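None of the 8 tested members changed direction under any of the 14 alternatives. Among their alternative values, 105 kept their side of the threshold and 7 did not, namely 3 for COL1A2, 3 for COL5A2 and 1 for DCN. For IRF1 and the called genes named by highest or lowest fold change outside the marker lists, 461 kept it and 29 did not. Genes named only after their values were seen, such as ESRP1 and TERT, are not in this tally. With glmTreat, 611 genes were higher and 603 lower, and 1 member, PRRX1, was higher, since glmTreat tests against the limit itself. Without a limit on the fold change, 1842 genes were higher. Leaving out each library gave between 756 and 1156 higher genes and between 874 and 1548 lower genes, with both lowest counts without overexpressing replicate 1. It gave between 1 and 3 higher members, with 1 without overexpressing replicate 1 and without control replicate 8, and between 4 and 5 lower members. The lone library of a group was then assumed to vary like the other group. The ratio of COL1A2 to COL1A1 counts without exon length was 5.36 in the controls, a shift that the lengths set. Of the counts for the other lists, 400 stayed within 1.5 times and 48 did not. Other scalings moved the median of all genes by less than 0.02 on the log2 scale. No paired analysis was possible because the groups share no replicate numbers. COL3A1, COL5A1 and DCN are limited by depth.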
